A study of Mus musculus with 18 samples.

Results

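Cytosolic translation initiation and elongation factors were examined in ileum cells of 18 mice on Agilent one-colour arrays. The genes were chosen by name, as every entry of the array that begins with Eif1 to Eif6 or with Eef1 or Eef2, is no control spot, and was flagged as well above background by the scanner software in 5 or more of the 6 mice of some group. Of 65 such names 63 passed, out of 21542 genes that passed among 37074 names in all. *Eef1a2* and *Eif2c5* did not pass. Each gene is represented by its brightest probe.

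The groups were iPGC1afl/fl CHOW, iPGC1afl/fl HFD and iPGC1a-/- HFD, with 6 mice and 6 arrays each. iPGC1afl/fl mice carry a loxP-flanked *Ppargc1a*, which encodes the coactivator Pgc1α, and serve as the floxed controls. In iPGC1a-/- mice that gene is the target of a Cre recombinase under the villin promoter, which is active in the intestinal epithelium, so other cells of the mouse keep the gene. The high-fat diet (HFD) was a Western-type diet with 42% of its energy from fat and 0.2% cholesterol, given for 8 weeks from an age of 8 weeks, and chow was the control diet. Mice were fasted when killed at a fixed circadian time. The labels give no sex, and the study lists its floxed and iPGC1a-/- mice as male. The cells were released from the ileum with a chelating buffer and their RNA was measured in bulk, so fewer cells of a type and less RNA per cell cannot be told apart. A chow group of iPGC1a-/- mice was not analysed here.

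In initiation, eIF2 carries the initiator tRNA to the small ribosomal subunit, eIF3 and the eIF1 family organise that subunit for scanning, and the eIF4 factors bring it to the capped end of the mRNA. After each round eIF2 is recharged by the exchange factor eIF2B. Kinases that phosphorylate the α subunit of eIF2 block this step under stress, and 4E-binding proteins hold the cap-binding protein eIF4E back when growth signalling is low. In elongation, eEF1A delivers the aminoacyl-tRNAs and eEF2 moves the ribosome along. The renewing epithelium of the gut makes large amounts of protein and is known to use these factors heavily.

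The arrays lay on 3 slides, each with 2 arrays of every group, and 56.3% to 62.3% of the spots were well above background. Values are the log2 of the median signal after normalization between arrays, called log2 signal here, and they compare arrays for 1 probe, not probes with each other. A gene was called where limma, fitted to all 3 groups over 32726 probes, gave an adjusted p (Benjamini-Hochberg) no higher than 0.05. Nothing in the labels says more of the mice than the replicate numbers, so p-values measure the spread between these samples. The target gene did not separate the genotypes as labelled. Its brighter probe read between 10.104 and 11.25 on iPGC1afl/fl CHOW arrays, 11.26 and 11.45 on iPGC1afl/fl HFD arrays, and 11.36 and 12.01 on the arrays labelled iPGC1a-/- HFD, and its second probe was also no lower there. Between the HFD groups both probes were higher under the iPGC1a-/- label, by 0.30 and 0.36 on the log2 scale, without a call (limma adjusted p = 0.572 and 0.495). The study reports that only some exons are deleted, and that quantitative PCR showed the loss in the parts of the intestine. Whether these probes lie outside the deleted part was not determined, so genotype refers to the labels throughout.

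On HFD in iPGC1afl/fl mice the called translation factor genes were mostly lower than on chow. Of the 63 genes 15 fell and 2 rose, and 46 were not called. The 17 called genes are 27% of the set, beside 24.6% of all genes tested. By direction, 23.8% fell beside 14.2% of all genes, and 3.17% rose beside 10.4%. The median log2 fold change over the 63 genes was -0.13, with 47 of them below 0, beside a median of 0.00 over all genes. No test was made of the set as a whole. The split by direction depended on the scaling: with each array scaled to its 75th percentile, 8 genes fell and 6 rose. That scaling moved all genes too. On the median signal 22.8% of all genes were called and 9.41% fell, and on the background-subtracted signal 24.9% were called and 11.1% fell. The rest of those called rose. The median of the 63 genes minus that of all genes was then -0.14 and -0.11, beside -0.14 without it. A fold change of 1.5 was passed by 3 called genes, or 4.76% of the 63, beside 8.43% of all genes tested. *Eif2s2* and *Eif4ebp1* were the 2 that fell (5.2% of all genes) and *Eif2ak1* the 1 that rose (3.22%). All 17 called genes differed in the same direction on each of the 3 slides. The calls came from these same arrays, so this is a description and no separate test.

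**Figure D1:**
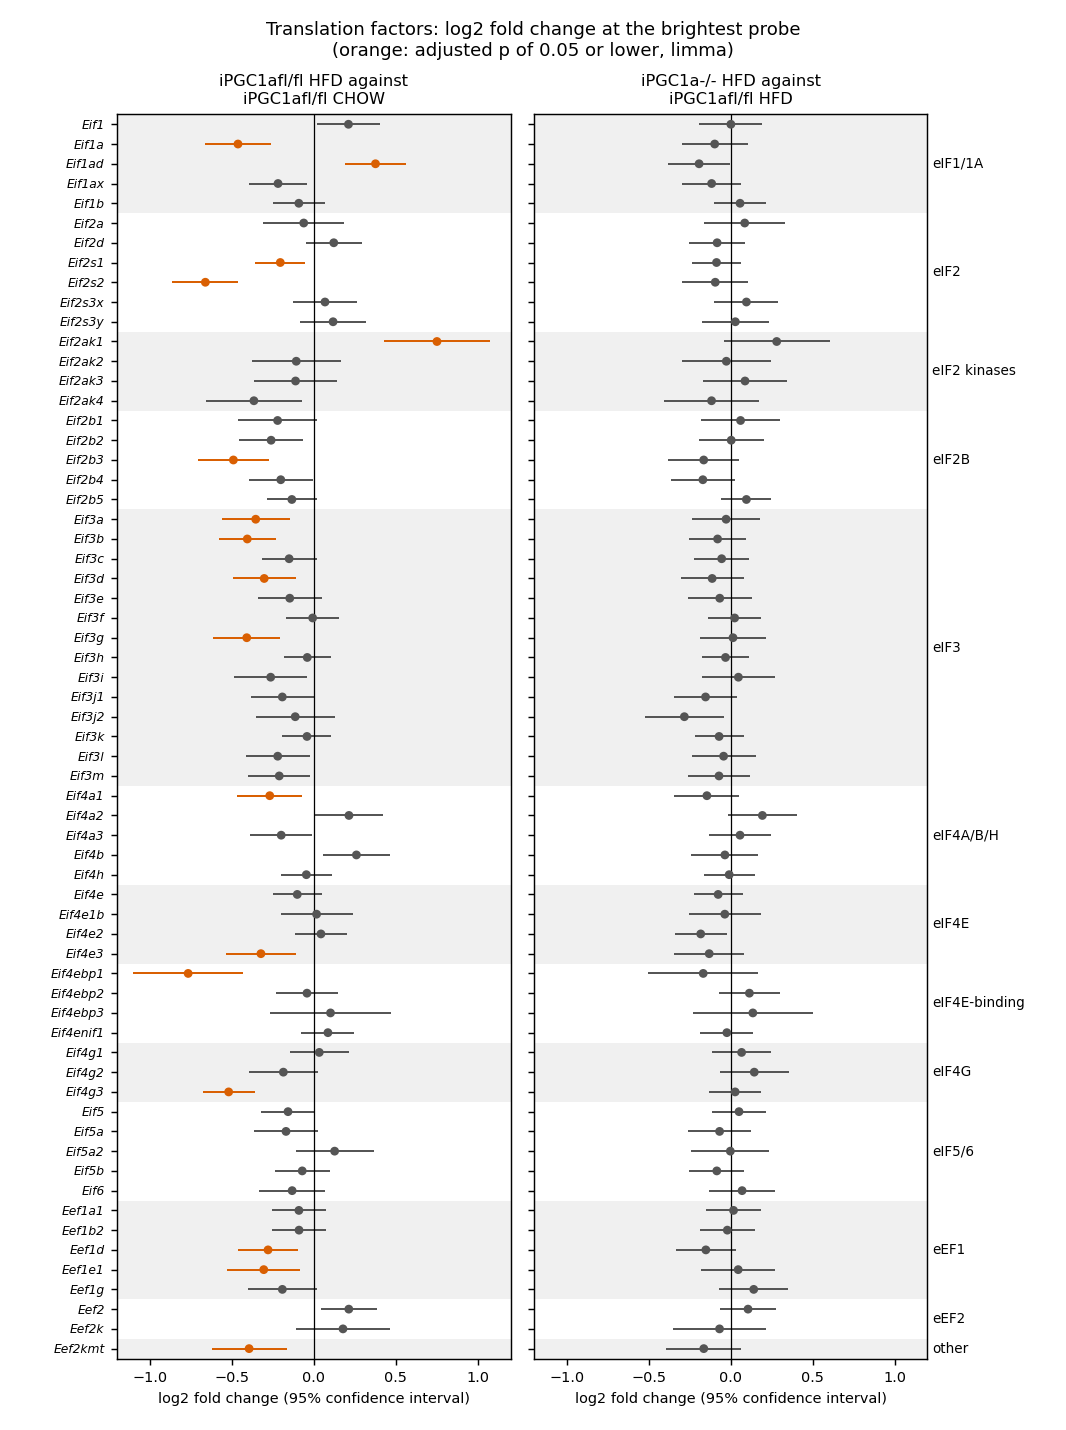
Log2 fold change of the 63 translation factor genes at the brightest probe, with 95% confidence intervals, ordered by complex. The left panel is iPGC1afl/fl HFD against iPGC1afl/fl CHOW and the right panel iPGC1a-/- HFD against iPGC1afl/fl HFD, with called genes in orange: 17 on the left, most of them left of 0, and none on the right.

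The trimeric eIF2 did not move as a unit. *Eif2s2* encodes its β subunit, which binds the exchange factors. Its log2 signal ranged from 12.11 to 12.77 on chow with a median of 12.32, from 11.60 to 11.88 on HFD with a median of 11.69, and from 11.42 to 11.84 in iPGC1a-/- HFD with a median of 11.62. Every chow array lay above every HFD array of either genotype. On HFD the gene was 1.58-fold lower in iPGC1afl/fl mice (log2 fold change -0.66, SE 0.10, limma adjusted p = 5.01e-05). The exact two-sided permutation p over the 924 divisions of 12 mice was 0.00216, the smallest that 6 against 6 can give. A second, dimmer probe in the same gene fell by 0.64 on the log2 scale, also past the threshold. The first probe lies at chr2:154698193-154698252 in mm9.

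*Eif2s1*, the α subunit that the stress kinases phosphorylate, fell less, from 10.53 ± 0.13 on chow to 10.33 ± 0.08 on HFD (SD, n = 6 each). Its log2 fold change was -0.21 with a limma adjusted p of 0.0476. The groups overlapped, and the call was lost in 8 of 13 other settings of the analysis and in 11 of 18 fits without 1 array, with adjusted p up to 0.361. The γ subunit, which holds the initiator tRNA, is encoded by *Eif2s3x* and its Y-linked copy *Eif2s3y*. Neither was called, with log2 fold changes of 0.07 (95% interval -0.13 to 0.26) and 0.12 (-0.09 to 0.32). *Eif2s3y* read between 9.15 and 9.73 on all arrays. *Eif2a* and *Eif2d*, which can deliver initiator tRNA without eIF2, were not called either, at -0.06 and 0.12.

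Of the 4 eIF2 kinases only the haem-regulated kinase *Eif2ak1* was called on HFD, beside 24.6% of all genes. Its log2 signal ranged from 7.71 to 8.09 on chow with a median of 7.98, from 8.29 to 9.07 on HFD with a median of 8.70, and from 8.54 to 9.54 in iPGC1a-/- HFD with a median of 8.86. All 12 HFD arrays lay above all 6 chow arrays. It was the called gene with the largest rise, 1.68-fold on HFD in iPGC1afl/fl mice (log2 fold change 0.75, SE 0.16, limma adjusted p = 0.00145, exact two-sided permutation p = 0.00216). Its 4 probes all pointed the same way, at log2 fold changes of 0.18 to 0.75, and 3 of them were called. The brightest probe lies at chr5:144662840-144662899 in mm9.

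The other kinases showed lower or similar values. *Eif2ak2*, which responds to double-stranded RNA, was at -0.11 (95% interval -0.38 to 0.16), and *Eif2ak3*, which responds to the endoplasmic reticulum, was at -0.11 (-0.37 to 0.14). *Eif2ak4*, which senses uncharged tRNA, went from 7.18 ± 0.19 to 6.81 ± 0.34 (SD, n = 6 each), a log2 fold change of -0.37 with a limma adjusted p of 0.0653. That value missed the threshold and passed it with the array weights or the replicate block.

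All 5 subunits of the exchange factor eIF2B had negative log2 fold changes on HFD, from -0.49 to -0.13 with a median of -0.22. Beside 14.2% of all genes called lower, 1 of the 5 was called. That was *Eif2b3*, the γ subunit of the catalytic part, with chow values of 7.90 to 8.397 (median 8.28) and HFD values of 7.48 to 7.97 (median 7.71). The lowest chow array fell within the HFD range. Its log2 fold change was -0.49 (SE 0.10, limma adjusted p = 0.00167, exact permutation p = 0.00649), and all 3 of its probes were called. *Eif2b2*, a regulatory subunit, had a log2 fold change of -0.26 and an adjusted p of 0.0519, just short of the threshold. *Eif2b5*, the catalytic subunit itself, had a log2 fold change of -0.13 (95% interval -0.29 to 0.02).

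**Figure D2:**
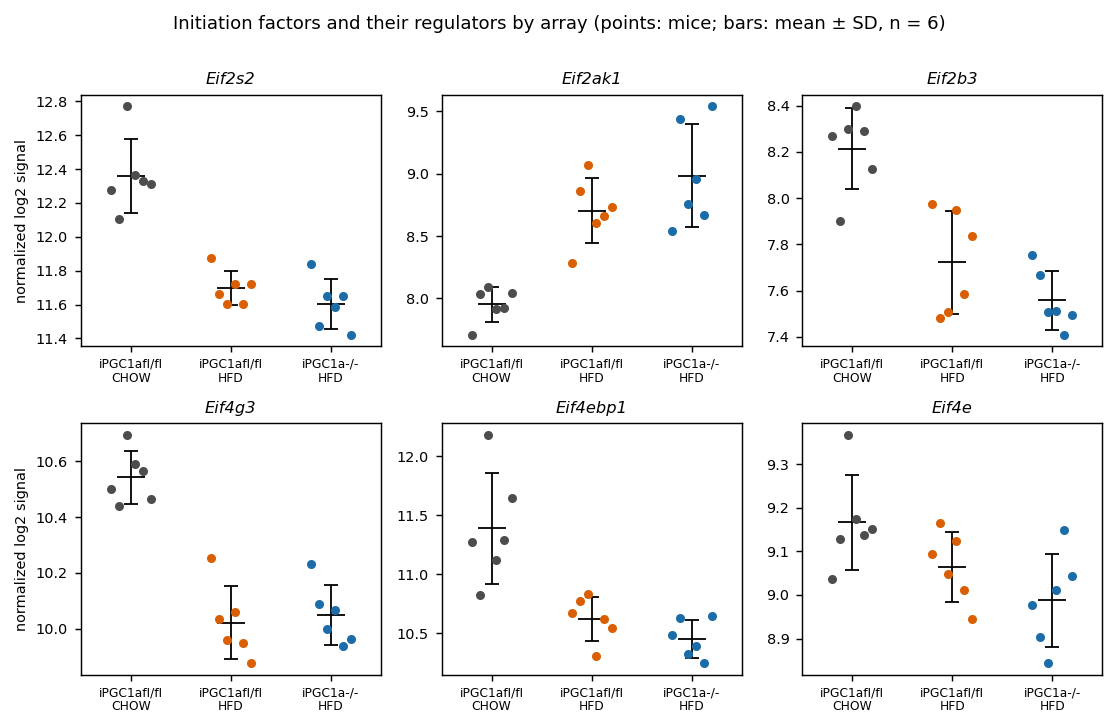
Normalized log2 signal of 6 initiation genes, with a point for each mouse and the mean ± SD of 6 mice per group. The *Eif2s2* and *Eif4g3* values on chow lie above all HFD values, those of *Eif2ak1* lie below them, and the *Eif4e* groups overlap.

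eIF3 is the large scaffold on which initiation is assembled. All 14 of its measured genes had negative log2 fold changes on HFD, from -0.41 to -0.01 with a median of -0.20. Of the 14, 4 were called, beside 14.2% of all genes called lower. Over all genes 50.5% of the log2 fold changes were above 0. With each array scaled to its 75th percentile 11 of the 14 were below 0, at a median of -0.11 on the median signal and of -0.074 on the background-subtracted signal. With the normexp background correction 13 were, at a median of -0.17. *Eif3b*, a scaffold subunit, ranged from 13.08 to 13.51 on chow (median 13.36) and from 12.74 to 13.07 on HFD (median 12.92), without overlap. Its log2 fold change was -0.41 (SE 0.08, limma adjusted p = 0.00146, exact permutation p = 0.00216). *Eif3a*, the other large scaffold subunit, ranged from 11.902 to 12.41 on chow (median 12.003) and from 11.4996 to 11.900 on HFD (median 11.74). Its ranges all but touched without overlap, and its log2 fold change was -0.36 (adjusted p = 0.0139 by limma). The 75th-percentile scaling took that call away, with an adjusted p of up to 0.0828.

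*Eif3g*, whose product contacts the mRNA channel side of the small subunit, fell by 0.41 on the log2 scale (limma adjusted p = 0.00451), and its groups overlapped. *Eif3d*, whose product can bind the cap, fell by 0.30 (adjusted p = 0.0212 by limma). Among the 10 that were not called, *Eif3f*, *Eif3h* and *Eif3k* lay nearest to 0, at -0.01, -0.04 and -0.04, with 95% intervals that together ran from -0.19 to 0.16. *Eif3i*, *Eif3l*, *Eif3m* and *Eif3j1* lay between -0.26 and -0.19. *Eif3j1* and *Eif3j2* are close copies of each other, as are *Eif1a* and *Eif1ax*, so a probe of either may also read the other. The second probes of *Eif3i* and *Eif3j1* were above 0, at 0.07 and 0.03, and a dim second probe of *Eif3c* fell by 0.32 (limma adjusted p = 0.0171).

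The fall was not equal across HFD arrays. Taking each eIF3 gene as its difference from the chow mean, the median over the 14 genes on an array ranged from -0.20 to 0.17 on chow and from -0.35 to 0.01 in iPGC1afl/fl HFD. Replicates 1 and 4 of iPGC1afl/fl HFD sat at 0.01 and -0.086, inside the chow range, and replicate 3 at -0.35. The iPGC1a-/- HFD arrays ran from -0.48 to -0.18. Without iPGC1afl/fl HFD replicate 1, 6 eIF3 genes were called lower on HFD in iPGC1afl/fl mice, and without iPGC1afl/fl HFD replicate 2 it was 3. Of all genes 16.4% and 10.7% were then called lower.

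**Figure D3:**
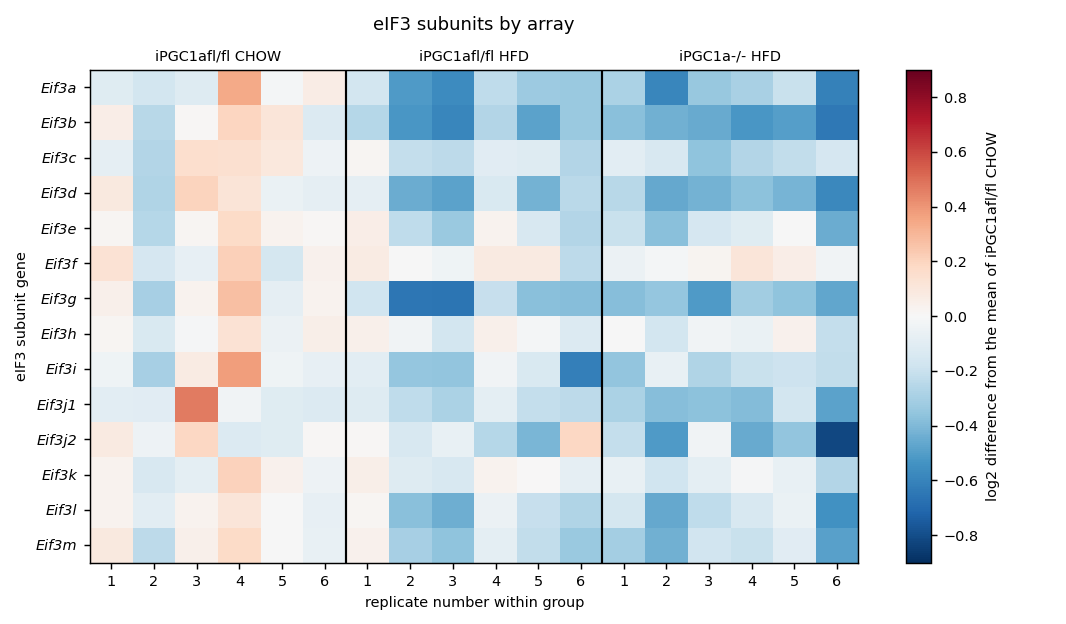
eIF3 genes (rows) on the 18 arrays (columns, by group and replicate number). Colour gives the log2 difference from the mean of the iPGC1afl/fl CHOW arrays, blue for lower. iPGC1afl/fl HFD replicate 1 and iPGC1afl/fl CHOW replicate 2 differ from the rest of their groups, with medians over the 14 genes of 0.01 and -0.20.

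In the eIF1 family, 1 gene fell, 1 rose and 3 were not called, beside 14.2% of all genes that fell and 10.4% that rose. *Eif1a*, an eIF1A gene that promotes scanning, fell from 11.34 ± 0.25 on chow to 10.88 ± 0.08 on HFD (SD, n = 6 each), at a log2 fold change of -0.46 and a limma adjusted p of 0.00159. Its chow range of 10.97 to 11.72 overlapped the HFD range of 10.82 to 11.04. *Eif1ad*, which encodes a nuclear protein with an eIF1A-like domain, rose from 12.83 ± 0.17 to 13.21 ± 0.19 (log2 fold change 0.38, limma adjusted p = 0.00497). *Eif1*, the factor that guards start codon choice, had a log2 fold change of 0.21 (95% interval 0.02 to 0.40) and an adjusted p of 0.106.

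Of the 4 eIF4E-binding genes 1 was called, beside 24.6% of all genes. *Eif4ebp1* encodes the 4E-binding protein that sequesters eIF4E when mTOR is inactive. It ranged from 10.82 to 12.18 on chow (median 11.29), from 10.31 to 10.83 on HFD (median 10.64) and from 10.25 to 10.64 in iPGC1a-/- HFD (median 10.44). The diet groups met only at chow replicate 2, which read 10.82 beside a highest HFD value of 10.83. The fall of 0.77 on the log2 scale, or 1.70-fold, was the largest of the set (SE 0.16, limma adjusted p = 0.00167, exact permutation p = 0.00433). Chow replicate 3 stood highest, at 12.18, and without any 1 array the adjusted p stayed at or below 0.00489. The gene has 1 probe, at chr8:28385887-28385946 in mm9.

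Its relatives did not follow. *Eif4ebp2* was at -0.04 (95% interval -0.23 to 0.14). *Eif4ebp3* was at 0.10 (-0.27 to 0.47), with the same chow replicate 3 at 12.25 and the other chow arrays at or below 11.44. *Eif4e*, which binds the cap, ranged from 9.04 to 9.37 on chow and from 8.95 to 9.17 on HFD, and its log2 fold change of -0.10 (-0.25 to 0.05) was not called. Of the other eIF4E genes, *Eif4e3* fell by 0.32 (limma adjusted p = 0.0268) and *Eif4e2*, whose product competes for the cap, was at 0.04 (-0.12 to 0.20). *Eif4e1b*, an oocyte form, was near background, at 4.89 to 5.46.

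Among the scaffolds of the cap complex, *Eif4g3* fell, from 10.44 to 10.69 on chow (median 10.53) to 9.88 to 10.25 on HFD (median 9.997). These ranges did not overlap. The log2 fold change was -0.52 (SE 0.08, limma adjusted p = 4.88e-05, exact permutation p = 0.00216), the lowest adjusted p of the 63 genes. All 4 of its probes were below 0, from -0.52 to -0.19, and 2 were called. *Eif4g1*, the main scaffold, was at 0.03 (95% interval -0.15 to 0.21), and *Eif4g2*, which lacks the eIF4E site, was at -0.19 (-0.40 to 0.02). The helicase genes *Eif4a1* and *Eif4a2* lay on opposite sides of 0, at -0.27 and 0.21. Only *Eif4a1* was called, at a limma adjusted p of 0.0465, and it lost that call in 6 of 13 other settings and in 11 of 18 fits without 1 array. The dimmest probe of *Eif4a2* fell by 0.25 (adjusted p = 0.0486), against the direction of the brightest. *Eif4b*, a helicase cofactor, had a log2 fold change of 0.26 and an adjusted p of 0.0617 at its brightest probe and 0.28 with an adjusted p of 0.0227 at the other, and *Eif4h*, another, was at -0.05.

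None of the genes for the late steps of initiation was called, beside 24.6% of all genes. *Eif5*, which triggers GTP hydrolysis on eIF2, was at -0.16, and *Eif5b*, which joins the subunits, was at -0.07. *Eif5a*, which helps ribosomes through difficult peptide bonds, was at -0.17 (95% interval -0.36 to 0.02), and its relative *Eif5a2* was at 0.13 (-0.11 to 0.36). *Eif6*, which keeps free large subunits apart from small ones, was at -0.13 by its brightest probe and at -0.15 by the next. The dimmest probe of *Eif6* fell by 0.37 (adjusted p = 0.0308 by limma).

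Of the elongation factors 2 of 5 eEF1 genes and neither *Eef2* nor *Eef2k* were called, beside 24.6% of all genes. All 5 eEF1 genes had negative log2 fold changes on HFD, with a median of -0.19, and 3 of the 5 kept that sign with the 75th-percentile scaling. *Eef1a1*, which carries aminoacyl-tRNA, ranged from 15.18 to 15.41 on chow and from 14.92 to 15.40 on HFD, and its log2 fold change of -0.09 (95% interval -0.26 to 0.07) was not called. *Eef1d*, part of the exchange factor of eEF1A, fell from 13.85 ± 0.08 to 13.57 ± 0.20 (SD, n = 6 each; log2 fold change -0.28, limma adjusted p = 0.0246). Both of its measured probes were called. *Eef1e1*, a member of the multi-tRNA synthetase complex, fell by 0.31 (adjusted p = 0.045), a call kept in 4 of 13 other settings. *Eef1b2* and *Eef1g*, the remaining exchange factor subunits, were at -0.09 and -0.19.

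*Eef2*, the translocation factor, ranged from 15.53 to 15.67 on chow (median 15.58), from 15.61 to 15.92 on HFD (median 15.82) and from 15.68 to 16.18 in iPGC1a-/- HFD (median 15.89). The diet groups of iPGC1afl/fl mice overlapped at a single HFD array. Its log2 fold change of 0.21 had a limma adjusted p of 0.0657, just short of a call, and passed the threshold under 6 of 13 other settings. *Eef2k*, the kinase that inactivates eEF2, was at 0.18 (95% interval -0.11 to 0.46). *Eef2kmt*, which methylates eEF2 on a lysine, fell by 0.40 (adjusted p = 0.0128 by limma), and both of its probes were called.

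**Figure D4:**
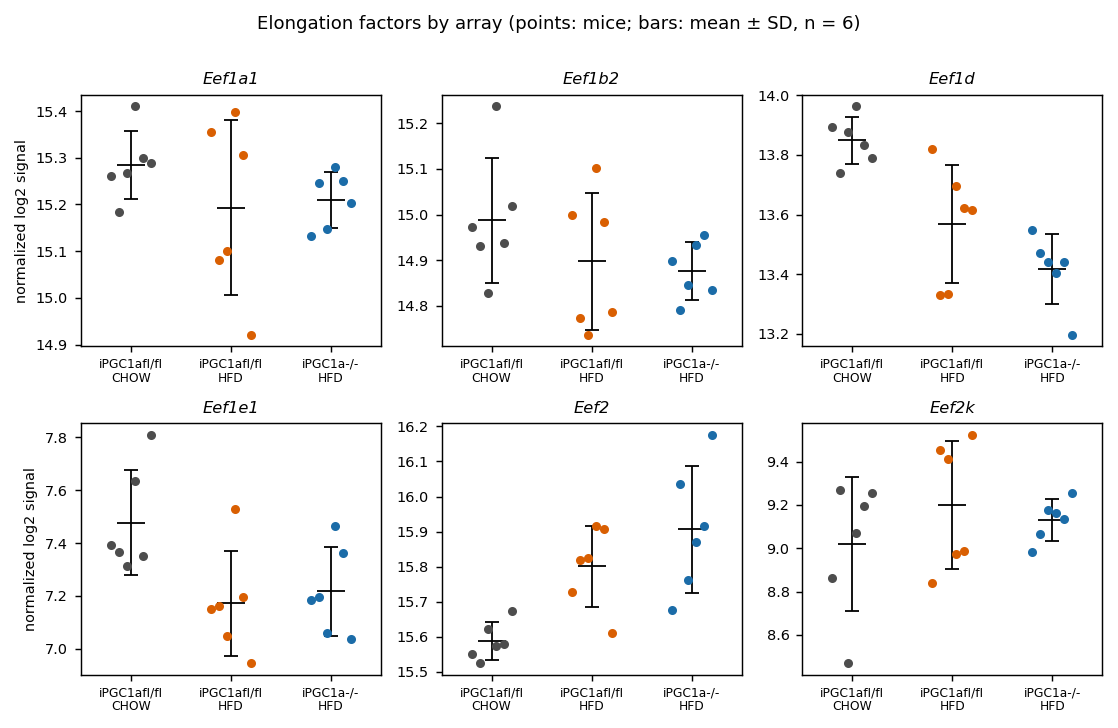
Normalized log2 signal of 6 elongation genes, with a point for each mouse and the mean ± SD of 6 mice per group. *Eef1d* lies lower on HFD, *Eef2* lies higher with 1 iPGC1afl/fl HFD array among the chow values, and *Eef1a1* overlaps between all groups.

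Groups did not overlap for 5 of the 63 genes between the diets, which is 7.94%, beside 10.4% of all genes. *Eif2s2*, *Eif3a*, *Eif3b* and *Eif4g3* were the 4 lower on HFD (5.29% of all genes) and *Eif2ak1* the 1 higher (5.08%). Their promoters are shown because these genes separated every mouse by diet, together with that of *Eef2*, which separated iPGC1a-/- HFD from chow. Each sequence is the 150 bases before the RefSeq transcription start in GRCm38.p6, a different build from that of the probes, read 5′ to 3′ on the strand of the gene. Capitals mark a match to 1 of 4 motifs searched on both strands: the E-box CACGTG, the ETS motif CCGGAAG, the CCAAT box, and the amino acid response element TGATGNAAN.
Eif2s2 (chr2:154892907-154893056, minus strand): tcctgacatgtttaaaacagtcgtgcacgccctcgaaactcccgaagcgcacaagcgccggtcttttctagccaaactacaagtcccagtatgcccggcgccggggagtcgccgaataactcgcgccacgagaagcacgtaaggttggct
Eif2ak1 (chr5:143817642-143817791, plus strand): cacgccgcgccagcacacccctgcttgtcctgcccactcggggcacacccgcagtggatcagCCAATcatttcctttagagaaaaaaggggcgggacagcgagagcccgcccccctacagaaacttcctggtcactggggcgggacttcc
Eif3a (chr19:60790694-60790843, minus strand): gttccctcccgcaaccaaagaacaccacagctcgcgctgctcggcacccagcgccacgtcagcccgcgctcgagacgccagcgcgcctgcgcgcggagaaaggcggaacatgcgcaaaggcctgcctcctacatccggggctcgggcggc
Eif3b (chr5:140419155-140419304, plus strand): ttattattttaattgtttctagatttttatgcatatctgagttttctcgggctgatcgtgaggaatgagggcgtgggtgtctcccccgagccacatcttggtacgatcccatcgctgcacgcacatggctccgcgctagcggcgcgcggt
Eif4g3 (chr4:137993305-137993454, plus strand): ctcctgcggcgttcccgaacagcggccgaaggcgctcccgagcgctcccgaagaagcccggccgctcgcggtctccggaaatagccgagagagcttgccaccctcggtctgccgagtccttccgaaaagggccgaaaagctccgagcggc
Eef2 (chr10:81176481-81176630, plus strand): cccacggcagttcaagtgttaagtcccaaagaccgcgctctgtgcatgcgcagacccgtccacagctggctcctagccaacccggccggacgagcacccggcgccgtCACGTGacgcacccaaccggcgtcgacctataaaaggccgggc
Only 2 of the 6 held a match, *Eif2ak1* with a CCAAT box from position -88 and *Eef2* with an E-box from position -43, counted from the start. RefSeq windows were given for 49 of the 63 genes, as 64 windows, some of which share bases. Of these, 15.6% held the E-box and 15.6% the ETS motif, beside 4.3% and 5.52% of all 32851 windows. The 32851 windows were not limited to genes that passed the filter on background, as the 63 genes were. The CCAAT box stood in 20.3% beside 24.5%, and the response element in 3.12% beside 2.22%. Of the 15 genes that fell on HFD 10 had a window, and 0 of these 10 held the E-box, 2 the ETS motif and 2 the CCAAT box. No letter string is part of another, and a match is a description of these windows only.

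Genes that work with the factors were counted in lists by role. Of 50 measured partners and regulators 9 fell and 2 rose on HFD, which is 22% called, beside 24.6% of all genes (14.2% lower and 10.4% higher). Their median log2 fold change was -0.10. Among 8 release and recycling genes 3 fell: *Denr* by 0.41, the ribosome splitter *Abce1* by 0.39, and *Etf1*, which reads stop codons, by 0.34. Among 5 poly(A)-binding genes 2 fell, *Paip2b* by 0.43 and *Pabpc1* by 0.30. Of the 6 initiation helpers *Larp1*, which binds mRNAs of the translation machinery, fell by 0.32. Of 18 genes that signal to eIF4E and eIF2 2 rose, the mTOR inhibitor *Sesn2* at 0.47 and the mTOR partner *Rptor* at 0.21, and *Impact*, a brake on *Eif2ak4*, fell by 0.36. Mitochondrial translation factors had 2 of 9 called, both lower (*Gfm1* at -0.33 and *Tufm* at -0.25). None of the 2 eIF5A-modifying and 2 selenoprotein genes was called. The adjusted p of the called genes named here ran from 0.00359 to 0.0438 by limma.

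Lists further from the factors differed in the share called. Of 20 cytosolic aminoacyl-tRNA synthetases 14 fell and 0 rose, 70% beside the 24.6% of all genes, with a median of -0.43, led by *Mars* at -0.76 and *Wars* at -0.73. Of 17 measured targets of the integrated stress response, which eIF2 phosphorylation sets off, 7 fell and 4 rose, which is 64.7%. The falls were the larger changes: *Chac1* at -2.06, *Asns* at -1.61, *Phgdh* at -1.56 and *Psat1* at -1.29, the last 3 being enzymes of amino acid synthesis. The highest rise was *Slc3a2*, an amino acid transporter chain, at 0.60. Its transcription factor *Atf4* was at -0.25 and not called (adjusted p = 0.11). Of 80 cytosolic ribosomal protein genes 7 fell and 0 rose, with a median of -0.15 close to that of the factors, and 8.75% called.

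**Figure D5:**
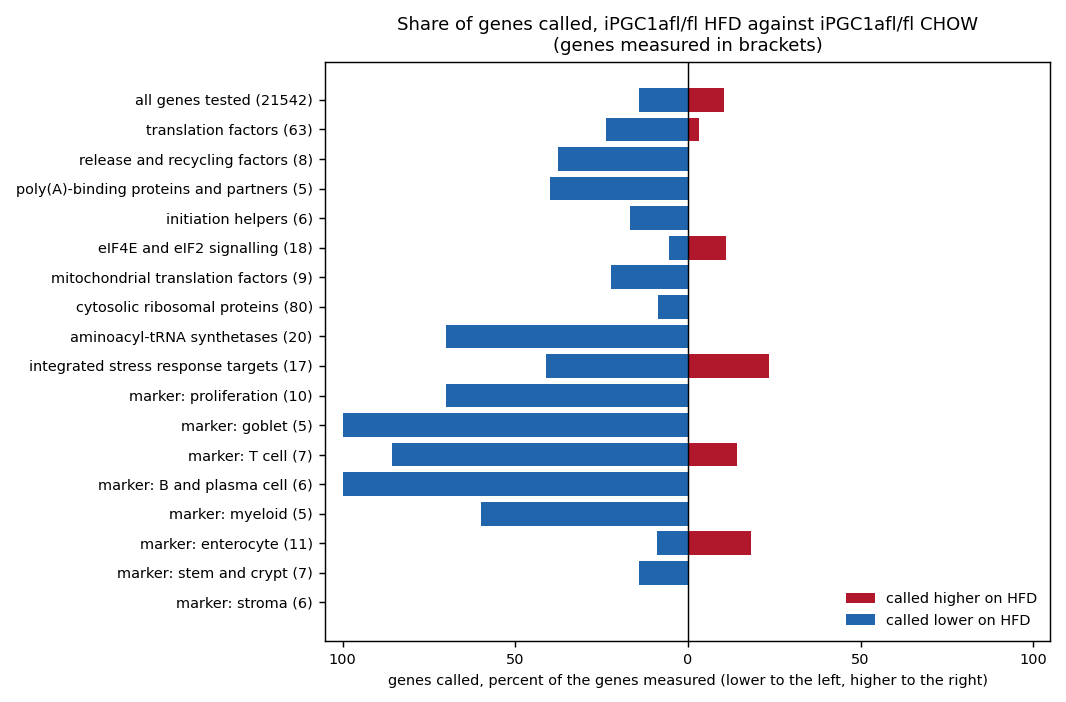
Share of genes called lower (left, blue) and higher (right, red) on HFD against chow in iPGC1afl/fl mice. Bars are for all genes tested, the translation factors and most of the lists named in the text, with the number of genes measured in brackets. Aminoacyl-tRNA synthetases (14 of 20 lower) had a larger share called lower than the translation factors (15 of 63 lower) or the ribosomal proteins (7 of 80 lower).

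Markers of other cells also moved with diet in iPGC1afl/fl mice. Beside the counts that follow, 14.2% of all genes were called lower and 10.4% higher. Proliferation genes fell in 7 of 10 (median -0.55), and their summed signal was 17158 to 30825 on chow and 12160 to 19454 on HFD. T cell genes fell in 6 of 7, with *Cd4* higher, at summed signals of 22468 to 54587 and 16870 to 25050. B and plasma cell genes fell in 6 of 6 (2485 to 5215 and 1080 to 2089), goblet genes in 5 of 5 (409136 to 529067 and 180123 to 438482) and myeloid genes in 3 of 5 (22126 to 47471 and 19492 to 69246). Of 11 enterocyte genes 2 rose and 1 fell (871851 to 1071970 and 970351 to 1156280), 1 of 7 stem and crypt genes fell, and 0 of 6 stromal genes were called. Among Paneth, enteroendocrine and tuft genes 1 of 5, 1 of 7 and 1 of 3 fell. All 11 enterocyte markers passed the filter on background, and the stromal markers *Col1a1* and *Pdgfra* did not. The part of these cell types in the fall of the translation factors was not tested.

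For genotype on HFD, arrays labelled iPGC1a-/- against iPGC1afl/fl, 0 of the 63 genes were called by limma, beside 0.227% of all genes. At an unadjusted p below 0.05 there were 3 of the 63, beside 9.3% of all genes. None of 14 other settings or 18 fits without 1 array called any of the 63. Log2 fold changes ran from -0.28 to 0.28, with a median of -0.03, 37 below 0 and 26 above. The 95% interval lay within a fold change of 1.5 in either direction for 62 genes. The exception was *Eif2ak1*, at 0.28 with an interval of -0.04 to 0.60 and values between 8.54 and 9.54 beside 8.29 and 9.07. That is its brightest probe, and its other probes were at 0.08, -0.11 and -0.03. In no gene did the groups separate, beside 0.956% of all genes.

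The 3 genes with an unadjusted p below 0.05 were *Eif3j2* at -0.28 (95% interval -0.53 to -0.04), *Eif1ad* at -0.19 (-0.38 to -0.0044) and *Eif4e2* at -0.18 (-0.34 to -0.03), with limma adjusted p of 0.464 to 0.513. Of the 15 genes that fell on HFD 12 were below 0 here, and the 15 ran from -0.17 to 0.05 with a median of -0.10, in a comparison that shares the iPGC1afl/fl HFD arrays. Among the 15 were *Eif2b3* and *Eef2kmt* at -0.17 and -0.16, *Eif2s2* at -0.09 (-0.30 to 0.11), *Eif3b* at -0.08 (-0.26 to 0.09), *Eif4g3* at 0.03 (-0.13 to 0.18) and *Eif4ebp1* at -0.17 (-0.50 to 0.17). Dimmer probes often differed in sign. Those of *Eif2s2*, *Eef1d*, *Eef2kmt* and *Eif3d* were above 0, at 0.10, 0.01, 0.02 and 0.11, and that of *Eef1e1* was at -0.14. Those of *Eif2b3* were at -0.004 and 0.06, and those of *Eif4g3* at 0.04, -0.11 and -0.07. Of the 17 genes called between diets 16 had an interval within 1.5-fold. No partner, stress response or aminoacyl-tRNA synthetase gene was called between genotypes, and none of the cell markers was. A ribosomal protein gene was the only call in these lists, 1 of 80.

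iPGC1a-/- HFD against iPGC1afl/fl CHOW differs in genotype and diet together, and it shares its arrays with both other comparisons. In it 22 genes fell and 3 rose, 39.7% beside 36.8% of all genes. The 3 that rose were *Eif2ak1* at 1.03, *Eif4a2* at 0.41 and *Eef2* at 0.32, which is 4.76% beside 16.8% of all genes. Those that fell made up 34.9%, beside 20% of all genes. The rises are values of the brightest probe. Other probes of *Eif2ak1* were at 0.49, 0.39 and 0.06, of *Eef2* at 0.52 and 0.03, and of *Eif4a2* at 0.19 and -0.20. The call of *Eif4a2* was lost in 1 of 13 other settings (adjusted p = 0.165 by limma). Groups did not overlap for 15 genes, or 23.8%, beside 16.2% of all genes, with 12 lower and 3 higher (8.63% and 7.53% of all genes). The 5 that separated by diet in iPGC1afl/fl mice were among these 15. Past a fold change of 1.5 there were 3 lower and 1 higher (6.86% and 4.94% of all genes).

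Values against chow can be set side by side for the 2 HFD groups. *Eif2s2* was at -0.66 in iPGC1afl/fl and -0.76 in iPGC1a-/-, *Eif4ebp1* at -0.77 and -0.94, *Eif4g3* at -0.52 and -0.49, *Eif2b3* at -0.49 and -0.66, *Eif1a* at -0.46 and -0.56, and *Eif3b* at -0.41 and -0.49. The eIF3 median was -0.20 and -0.27, with 4 and 8 genes called lower. Of eIF2B 1 and 3 subunits were called lower. Of all genes tested 14.2% and 20% were called lower in the same comparisons. *Eif2b4* was at -0.20 and -0.37, while *Eif2b2* was at -0.26 in both, with limma adjusted p of 0.0519 and 0.0392. The *Eif2b2* call was lost in 5 of 13 other settings and in 7 of 18 fits without 1 array. *Eef1d* was at -0.28 and -0.43, and *Eef2* at 0.21 and 0.32. *Eif1ad* went the other way, at 0.38 in iPGC1afl/fl HFD and 0.18 in iPGC1a-/- HFD, where it was not called (limma adjusted p = 0.123). These are values of the brightest probe, and dimmer probes did not all keep the order of the groups. *Eif2s2* was then at -0.64 and -0.55, *Eef1d* at -0.27 and -0.26, and *Eif2b3* at -0.40 and -0.40 and at -0.55 and -0.50. *Eif2b4* was at -0.03 and -0.10, *Eef2* at 0.09 and 0.03 and at 0.25 and 0.52. *Eif4g3* was at -0.30 and -0.42, at -0.25 and -0.31, and at -0.19 and -0.16. In all, 27 genes were called against chow in either group, 15 of them in both, and 36 in neither. The 2 comparisons called 24.6% and 36.8% of all genes.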

How the data were processed

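RNA of 18 ileum cell samples was measured on Agilent SurePrint mouse arrays, 1 array per mouse. The authors deposited scanner files of Agilent Feature Extraction 10.10.1.1, whose spot intensity columns are not normalized between arrays, and a table of 33095 probes with log2 values that the authors had normalized. Control spots and those flagged as outliers (46 to 153 on an array) were dropped, and repeated spots were averaged into 56605 probes. A probe was kept if 5 or more of the 6 arrays of some group flagged it above background. The log2 median signals then went through a reimplementation of qsmooth (window 0.05, R 4.3.3). limma 3.58.1 was fitted to the 3 groups, and p-values were adjusted by Benjamini-Hochberg across 32726 probes. The batches that the study's methods correct for (washing bath, labelling serial) are not in the labels, so that step was left out. Value columns without a sample numbered 0. Single genes were also compared with two-sided exact permutation tests. The number of arrays limits the precision.

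The members and lists were chosen with earlier results of these data known. Named genes are, per comparison, up to 12 called members of largest change whose groups do not overlap, the brightest of each complex and a fixed list of central factors (kinases, cap-binding, eIF5A and elongation genes), and other members were named after their values were seen. Gene names are those of the scanner files, and all 63 matched a symbol in the GRCm38.p6 table from RefSeq, which also gave the promoters. Probe positions are printed as the scanner files give them, in mm9. Alternatives were other background corrections and scalings (75th percentile, quantile, normexp), other filters, blocks for slide and replicate, array weights, only the groups compared, the mean over probes, the authors' table, and leaving out each array. Within-slide values were added after the data were seen. The scripts were tested on simulated data. Figures were drawn with matplotlib 3.10.9 in Python 3.11.15.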

Additional observations from a re-analysis of the deposited data

Results flagged for a closer look

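In 2 of 108 groups of 6 arrays examined, 1 array lay far from the others; chance alone gives such a gap in about 1 of 20 groups. *Eif1a* in iPGC1afl/fl HFD replicate 6 read 11.04, with the next array of its group at 10.88. *Eif4e2* in iPGC1afl/fl CHOW replicate 3 read 12.25, with the next array at 12.04. The cause was not tested in either case.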

How the results depend on the processing

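Of the 17 genes called between diets, 10 kept the call in each of 13 other settings and each of 18 fits without 1 array: *Eef2kmt*, *Eif1a*, *Eif1ad*, *Eif2ak1*, *Eif2b3*, *Eif2s2*, *Eif3b*, *Eif3g*, *Eif4ebp1* and *Eif4g3*. The calls of *Eif2s1*, *Eif4a1* and *Eef1e1* were lost most often. None changed direction. Scaled to the 75th percentile, with the median or the background-subtracted signal, 8 genes fell and 6 rose on HFD in iPGC1afl/fl mice, 2 eIF3 genes fell, and 7 genes rose in iPGC1a-/- HFD against iPGC1afl/fl CHOW. The median over all genes was then 0.08 or 0.05, against 0.00. Of all genes 22.8% or 24.9% were called on HFD, 9.41% or 11.1% lower. In iPGC1a-/- HFD against chow 33.2% or 36% were called, 15.1% or 16.7% lower. The normexp correction gave 4 genes that rose on HFD, and array weights gave 5 that rose in iPGC1a-/- HFD against chow. Of all genes 25.6% and 36.7% were then called, beside 24.6% and 36.8% without these changes. With a fold change above 1.5 as well, 2 genes fell and 1 rose on HFD, 3 fell and 1 rose in iPGC1a-/- HFD against chow, and 0 eIF3 genes were called in either. Without 1 array at a time, 10 to 20 genes fell on HFD (10 without iPGC1afl/fl HFD replicate 2, 20 without replicate 1) and 2 to 4 rose, with 3 to 6 eIF3 genes lower. All genes moved too: 10.7% were called lower without replicate 2 and 16.4% without replicate 1, beside 14.2% with all arrays. For iPGC1a-/- HFD against chow 19 to 27 fell and 3 to 5 rose, with 6 to 11 eIF3 genes lower. The 19 came without iPGC1a-/- HFD replicate 6, where 16.5% of all genes were lower, and the 27 without replicate 5, where 22.4% were. Genotype on HFD stayed at 0 translation factor genes in all of these settings. Same-numbered arrays of different groups correlated at -0.22 to 0.35 (mean 0.10, others -0.02; 9 of 18 pairs above 0.1), and an array correlated best with its own number in 14 of 36 cases. Since 9 pairs were not above 0.1, the numbers were not taken as pairs, and whether they mark something shared was not settled. The fit with the replicate block called 18 genes lower and 3 higher on HFD, 25 and 4 in iPGC1a-/- HFD against chow, and 0 for genotype. Of all genes that fit called 27.4% on HFD (16.1% lower), 39.3% in iPGC1a-/- HFD against chow (21.6% lower) and 0.167% for genotype. The cause of these shifts was not tested.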
